A study of Mus musculus with 12 samples.

Results

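Dendritic cell transcripts were examined in RNA sequencing libraries of the mouse hepatoma Hepa1-6. The genes were 8 of the 21878 in the count table, chosen by name as markers of conventional and plasmacytoid dendritic cells: Clec9a, Batf3, Irf8, Flt3, Zbtb46, Itgax, Cd209a and Siglech. Total RNA came from 12 libraries labelled with liver as the tissue and with Hepa1-6, a cell line derived from a mouse hepatoma. There were 4 groups of 3 libraries. The IFNa group was treated with mIFNalpha, mouse interferon alpha, a cytokine of antiviral defence. The antiPD1 group received an antibody against PD-1, the checkpoint receptor that restrains T cells, the combination group received both agents, and the last group was untreated. The sources used here give no dose, time, strain or age. They also leave unsaid whether the tumour cells grew in mice and whether a group's 3 libraries are separate cultures or hosts. The p-values therefore cover only the spread between libraries, which may be technical. Within groups that spread exceeded counting error in every pair of libraries (chi-square per degree of freedom 14.6 to 241.6), and its source was not tested.

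Dendritic cells take up antigen and present it to T cells. The type 1 conventional dendritic cell hands antigens of dead cells to cytotoxic T cells and depends on the transcription factors BATF3 and IRF8, the type 2 cell presents mainly to helper T cells, and the plasmacytoid cell is a source of type I interferon. All of them arise from bone marrow progenitors that need the cytokine FLT3 ligand. In tumours, type 1 cells are known for carrying tumour antigen to lymph nodes and for attracting T cells. Few of these genes are used by dendritic cells alone: IRF8 is also made by B cells and macrophages, the integrin gene Itgax by macrophages and some lymphocytes, Zbtb46 by endothelial cells and Siglech by some tissue macrophages.

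The 300-base promoter windows of Clec9a, Batf3, Irf8, Zbtb46 and Itgax are shown to let the start sites be compared. They run from 250 bases before to 50 bases after the RefSeq start (build GRCm38.p6, strand of the gene), and all 8 genes matched a window. The RefSeq starts used for Batf3 and Zbtb46 lie inside the GENCODE gene, and those of Itgax and Siglech do so by a few bases. The GENCODE gene of Zbtb46 begins at chr2:181459426 on the minus strand, so its window lies far from that start. Clec9a lies at chr6:129408612-129408911 on the plus strand, Batf3 at chr1:191098164-191098463 on the plus strand, Irf8 at chr8:120736108-120736407 on the plus strand, Zbtb46 at chr2:181424339-181424638 on the minus strand and Itgax at chr7:128129300-128129599 on the plus strand. Capitals mark matches to the motifs named after the sequences.
Clec9a: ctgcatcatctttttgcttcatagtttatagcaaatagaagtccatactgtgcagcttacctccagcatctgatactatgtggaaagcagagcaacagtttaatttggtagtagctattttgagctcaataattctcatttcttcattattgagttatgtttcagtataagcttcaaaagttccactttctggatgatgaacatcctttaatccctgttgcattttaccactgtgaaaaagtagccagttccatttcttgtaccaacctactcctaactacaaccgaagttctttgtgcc
Batf3: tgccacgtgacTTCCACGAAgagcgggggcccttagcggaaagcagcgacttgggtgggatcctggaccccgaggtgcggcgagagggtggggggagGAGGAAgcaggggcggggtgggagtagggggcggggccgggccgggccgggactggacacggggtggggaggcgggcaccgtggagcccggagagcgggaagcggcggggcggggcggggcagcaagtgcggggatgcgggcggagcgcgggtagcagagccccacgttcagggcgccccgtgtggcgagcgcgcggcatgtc
Irf8: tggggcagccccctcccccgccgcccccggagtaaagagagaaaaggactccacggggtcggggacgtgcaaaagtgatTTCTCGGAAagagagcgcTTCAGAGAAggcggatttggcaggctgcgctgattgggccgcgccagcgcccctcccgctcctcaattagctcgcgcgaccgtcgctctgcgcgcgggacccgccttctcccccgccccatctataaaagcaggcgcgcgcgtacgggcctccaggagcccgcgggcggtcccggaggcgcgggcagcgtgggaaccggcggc
Zbtb46: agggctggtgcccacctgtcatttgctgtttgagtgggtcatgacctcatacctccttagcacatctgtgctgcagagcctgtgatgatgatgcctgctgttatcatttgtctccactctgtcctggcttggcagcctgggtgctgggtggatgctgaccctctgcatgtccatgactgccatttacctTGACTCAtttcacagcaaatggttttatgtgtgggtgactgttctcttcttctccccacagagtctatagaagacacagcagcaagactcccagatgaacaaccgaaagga
Itgax: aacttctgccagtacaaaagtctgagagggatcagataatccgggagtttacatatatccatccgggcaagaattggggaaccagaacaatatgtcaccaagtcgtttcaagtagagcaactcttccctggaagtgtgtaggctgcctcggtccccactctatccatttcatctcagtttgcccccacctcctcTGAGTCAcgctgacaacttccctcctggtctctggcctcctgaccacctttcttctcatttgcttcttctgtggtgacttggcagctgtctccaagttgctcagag

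The motifs searched on both strands were the interferon-stimulated response element (GAAA and GAAA around 2 bases of any kind), the ETS-IRF composite element EICE (GGAA and GAAA around 2 bases of any kind), the STAT site GAS (TTCNNNGAA), the AP-1 and BATF site (TGANTCA) and the PU.1 core (GAGGAA). The response element and EICE end in the same letters, and the PU.1 core can overlap the start of EICE. Batf3 held a GAS match at -239 to -231 and a PU.1 core at -153 to -148 from the start, and Irf8 held 2 GAS matches, at -171 to -163 and at -153 to -145. Zbtb46 and Itgax each held an AP-1 match, at -61 to -55 and at -56 to -50. Clec9a and Flt3 had no match, Cd209a had an EICE match and Siglech had a GAS match and a PU.1 core. A further Irf8 window, not shown, had no match. Of the 8 dendritic cell genes, 3 held a GAS match, 2 an AP-1 match, 2 a PU.1 core, 1 an EICE match and 0 an interferon-stimulated response element, where 8.3%, 7.81%, 28.3%, 2.72% and 3.44% of 32851 windows of the same length did. A match is a description of these letters and not evidence of binding.

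Depth was 31.3 to 38.5 M (mega) counts per library, with 15678 to 16377 genes detected, and a count of 3 equalled 0.0786 to 0.102 CPM (counts per M). Hepatoma transcripts dominated: the fetal serum protein gene Afp had 6255 to 7478 CPM in antiPD1, 5703 to 6921 CPM in combination, 7772 to 11180 CPM in IFNa and 9612 to 10866 CPM in untreated libraries. Leukocyte RNA was present in every library, with Ptprc, the pan-leukocyte phosphatase CD45, between 21.2 CPM in an IFNa library and 223.6 CPM in an antiPD1 library. The libraries that stood furthest from their groups in leukocyte content were antiPD1 replicate 3 and IFNa replicate 1. The summed CPM of 6 pan-leukocyte genes was 438 and 502 in antiPD1 replicates 1 and 2 and 1303 in replicate 3. It was 376 in both IFNa replicates 2 and 3 and 182 in replicate 1, 564 to 602 in combination libraries and 296 to 319 in untreated libraries. In these bulk libraries, fewer cells of a type and less RNA per cell cannot be told apart.

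**Figure D1:**
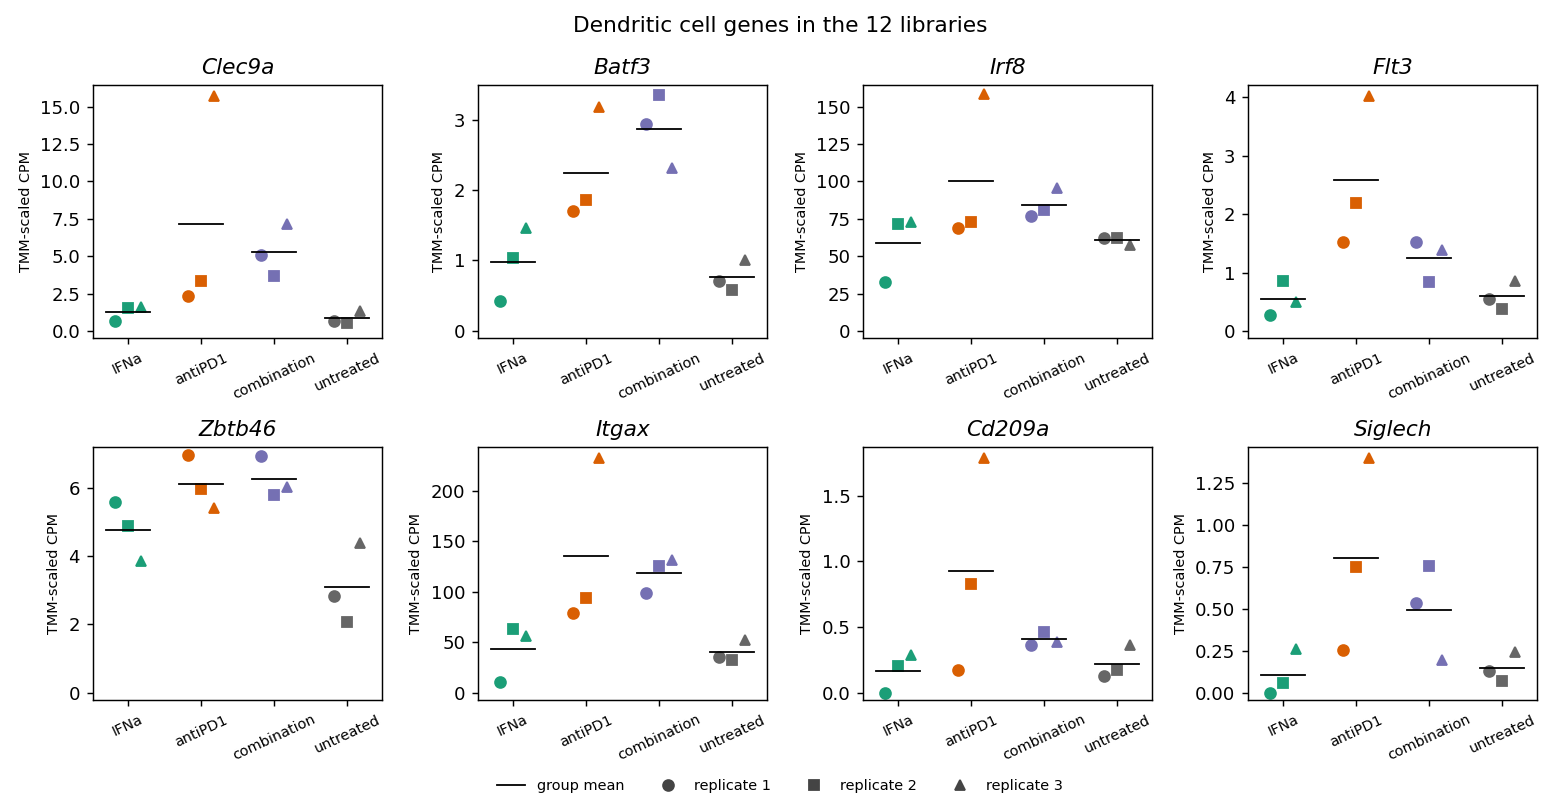
CPM (linear axes, scaled by TMM) of each dendritic cell gene in the 12 libraries, with 1 symbol per library and a line at the mean of 3 libraries. AntiPD1 replicate 3 is the highest of the 12 libraries for every gene except Batf3 and Zbtb46, and the antiPD1 and untreated libraries of Cd209a overlap.

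Per length, the order of the genes was nearly the same in all groups. In the deposited FPKM (fragments per kilobase and M fragments), Irf8 was first in untreated libraries (median 14.6), followed by Itgax (5.69), Batf3 (0.656), Zbtb46 (0.280), Clec9a (0.169), Cd209a (0.0797), Flt3 (0.0546) and Siglech (0.0213). The ranges of Zbtb46 (0.201 to 0.476) and Clec9a (0.143 to 0.302) overlapped, and so did those of each neighbouring pair from Clec9a down to Siglech (Cd209a 0.0559 to 0.224, Flt3 0.0349 to 0.0873, Siglech 0.0150 to 0.0425), whereas Irf8, Itgax, Batf3 and Zbtb46 did not overlap each other. Clec9a ranked above Zbtb46 in antiPD1 libraries (median FPKM 0.918 and 0.639) and in combination libraries (1.298 and 0.673). Itgax and Irf8 overlapped in IFNa libraries (1.59 to 10.5 and 7.81 to 18.2 FPKM), antiPD1 libraries (14.1 to 37.7 and 17.3 to 36.7) and combination libraries (17.3 to 23.3 and 19.2 to 24.4). Each of Zbtb46, Cd209a, Flt3 and Siglech stayed under 1 FPKM in all libraries.

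All 8 genes entered the test of 14330 genes, but on unequal footing. Clec9a, Batf3, Irf8, Flt3, Zbtb46 and Itgax stood above the count filter in every untreated library. Cd209a stood above it in 2 antiPD1, 3 combination, 0 IFNa and 1 untreated libraries, and Siglech in 2, 2, 0 and 0. Both therefore passed the filter mainly through the groups where they were high, and they are described apart from the other 6.

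Some of the dendritic cell genes rose after antiPD1 and after the combination, with the largest log2 fold change in Clec9a, and none passed the test after IFNa alone. After antiPD1, 4 of the 6 genes above the filter in untreated libraries rose (Clec9a, Batf3, Flt3 and Zbtb46), where 9.76% of all tested genes rose. After the combination, 3 of the 6 rose (Clec9a, Batf3 and Zbtb46), where 7.58% of all tested genes rose. Irf8 and Itgax passed in neither comparison, nor did Cd209a and Siglech. In both comparisons 0 of the 8 genes fell, and 5.08% and 5% of all genes did. Both comparisons use the same untreated libraries, so the calls are not independent of each other. Tests are edgeR's quasi-likelihood F test with Benjamini-Hochberg adjustment over 14330 genes, and a log2 fold change is given ± its standard error. That error was taken from the test, as the absolute log2 fold change divided by the square root of F.

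Clec9a encodes DNGR-1, the receptor by which type 1 conventional dendritic cells sense actin exposed on dead cells. It had 0.661, 1.54 and 1.57 CPM in IFNa libraries, 2.35, 3.33 and 15.7 CPM in antiPD1 libraries, 5.05, 3.66 and 7.12 CPM in combination libraries and 0.681, 0.508 and 1.34 CPM in untreated libraries. Every antiPD1 and combination library lay above every untreated library, and the third antiPD1 library was far above the other two. The log2 fold change was 3.06 ± 0.73 after antiPD1 (adjusted p = 0.0258) and 2.63 ± 0.72 after the combination (adjusted p = 0.0400). Without antiPD1 replicate 3 the antiPD1 value was 1.75 (adjusted p = 0.0827), and without both that library and IFNa replicate 1 it was 1.75 again with an adjusted p of 0.0344. The gene spans chr6:129408862-129424763 (mm10, GENCODE M21, plus strand), where the annotation also places Clec1b and Gm43914 on the same strand, so the division of reads between them is uncertain.

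Batf3, the transcription factor without which mouse type 1 conventional dendritic cells largely fail to develop, lies at chr1:191097847-191108945. It had 0.420, 1.03 and 1.47 CPM in IFNa libraries, 1.70, 1.86 and 3.18 CPM in antiPD1 libraries, 2.93, 3.34 and 2.32 CPM in combination libraries and 0.713, 0.575 and 1.01 CPM in untreated libraries. The lowest antiPD1 and combination values exceeded the highest untreated value, and here the combination libraries reached as high as antiPD1 replicate 3. Batf3 rose by 1.54 ± 0.45 log2 units after antiPD1 (adjusted p = 0.0440) and by 1.90 ± 0.46 after the combination (adjusted p = 0.0281).

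Irf8, the partner factor that type 1 and plasmacytoid dendritic cells need, was the most abundant transcription factor of the list per length. Its CPM was 32.7, 71.6 and 73.1 in IFNa libraries, 69.0, 72.9 and 158.3 in antiPD1 libraries, 76.6, 80.8 and 95.7 in combination libraries and 62.5, 62.3 and 57.3 in untreated libraries. The antiPD1 and combination libraries did not overlap the untreated ones, yet 2 of the antiPD1 values lay close above them. The log2 fold change did not pass after antiPD1 (0.72 ± 0.34, adjusted p = 0.165) or after the combination (0.48 ± 0.34, adjusted p = 0.362). Without antiPD1 replicate 3 the antiPD1 value was 0.24. Irf8 lies at chr8:120736358-120756694 on the plus strand and shares this interval with Gm20388 on the same strand, so its count is uncertain too.

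Flt3, the receptor tyrosine kinase through which FLT3 ligand sustains dendritic cell progenitors and conventional dendritic cells, was scarce. It had 0.270, 0.858 and 0.498 CPM in IFNa libraries, 1.53, 2.19 and 4.03 CPM in antiPD1 libraries, 1.52, 0.843 and 1.38 CPM in combination libraries and 0.551, 0.372 and 0.855 CPM in untreated libraries. Only the antiPD1 libraries were all above the untreated ones, since 1 combination library fell just inside the untreated range. Flt3 rose by 2.11 ± 0.52 log2 units after antiPD1 (adjusted p = 0.0281) and had a difference of 1.07 ± 0.52 after the combination (adjusted p = 0.182). The gene lies on the minus strand at chr5:147330741-147400489 opposite the antisense gene Gm26597, and no source used here states whether counting took account of strand.

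Zbtb46, a zinc finger factor of committed conventional dendritic cells and their precursors that endothelium also makes, was counted in every library. It had 5.59, 4.89 and 3.85 CPM in IFNa libraries, 6.97, 5.96 and 5.42 CPM in antiPD1 libraries, 6.94, 5.79 and 6.04 CPM in combination libraries and 2.82, 2.07 and 4.40 CPM in untreated libraries. All antiPD1 and combination values exceeded the highest untreated value, and antiPD1 replicate 3, the library richest in leukocytes, was the lowest of its group. Zbtb46 rose by 0.98 ± 0.28 log2 units after antiPD1 (adjusted p = 0.0388) and by 1.01 ± 0.28 after the combination (adjusted p = 0.0401). The gene lies at chr2:181387762-181459426 on the minus strand, with the small nuclear RNA Gm22708 inside it on the same strand. The summed CPM of 7 endothelial genes was 78.4 to 378 in antiPD1, 192 to 272 in combination and 95.6 to 215 in untreated libraries. None of the 7 endothelial genes passed in either comparison with all libraries, and their median log2 fold changes were 1.01 and 0.93. Without antiPD1 replicate 2, 4 of them were called after antiPD1 (17.8% of all genes). After the combination at most 1 was called with 1 library left out. The part of endothelial RNA in the Zbtb46 result was not tested.

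Itgax encodes CD11c, the integrin alpha chain by which dendritic cells are usually sorted, and lies at chr7:128129547-128150657. Its CPM was 10.2, 62.6 and 56.5 in IFNa libraries, 79.0, 93.5 and 232.7 in antiPD1 libraries, 99.0, 125.9 and 131.0 in combination libraries and 35.1, 32.3 and 52.3 in untreated libraries. The antiPD1 and combination libraries lay above all untreated ones, while IFNa replicate 1 was the lowest of the 12. The difference just missed the threshold after antiPD1 (1.76 ± 0.59, adjusted p = 0.0661) and missed it after the combination (1.57 ± 0.58, adjusted p = 0.0952). Without both antiPD1 replicate 3 and IFNa replicate 1 the values were 1.12 (adjusted p = 0.0187) and 1.57 (adjusted p = 0.00121).

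Cd209a, a C-type lectin of type 2 and monocyte-derived dendritic cells at chr8:3743397-3748984, was counted 0, 7 and 11 times in IFNa libraries, 6, 30 and 55 times in antiPD1 libraries, 13, 16 and 14 times in combination libraries and 4, 5 and 12 times in untreated libraries. The antiPD1 range overlapped the untreated one, whereas all combination counts were just above it. In CPM, the combination range (0.367 to 0.465) and the untreated range (0.130 to 0.367) touched. Cd209a has close relatives in the Cd209 gene family, so the division of reads between them is uncertain. Its log2 fold change was 2.03 ± 0.90 after antiPD1 (adjusted p = 0.141) and 0.85 ± 0.92 after the combination (adjusted p = 0.552), and without antiPD1 replicate 3 the antiPD1 value was 1.16.

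Siglech, a sialic acid-binding lectin of mouse plasmacytoid dendritic cells at chr7:55768178-55778925, was counted 0, 2 and 10 times in IFNa libraries, 9, 27 and 43 times in antiPD1 libraries, 19, 26 and 7 times in combination libraries and 4, 2 and 8 times in untreated libraries. Only the antiPD1 counts were all above the untreated ones, and by a single read in the lowest library, replicate 1. In the deposited FPKM that library (0.0137) lay below the untreated range (0.0150 to 0.0425). The log2 fold change was 2.39 ± 0.94 after antiPD1 (adjusted p = 0.102) and 1.71 ± 0.94 after the combination (adjusted p = 0.237), and without antiPD1 replicate 3 the antiPD1 value was 1.74. IFNa replicate 1 held no read of Cd209a or Siglech, which allows up to 0.0901 CPM there.

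**Figure D2:**
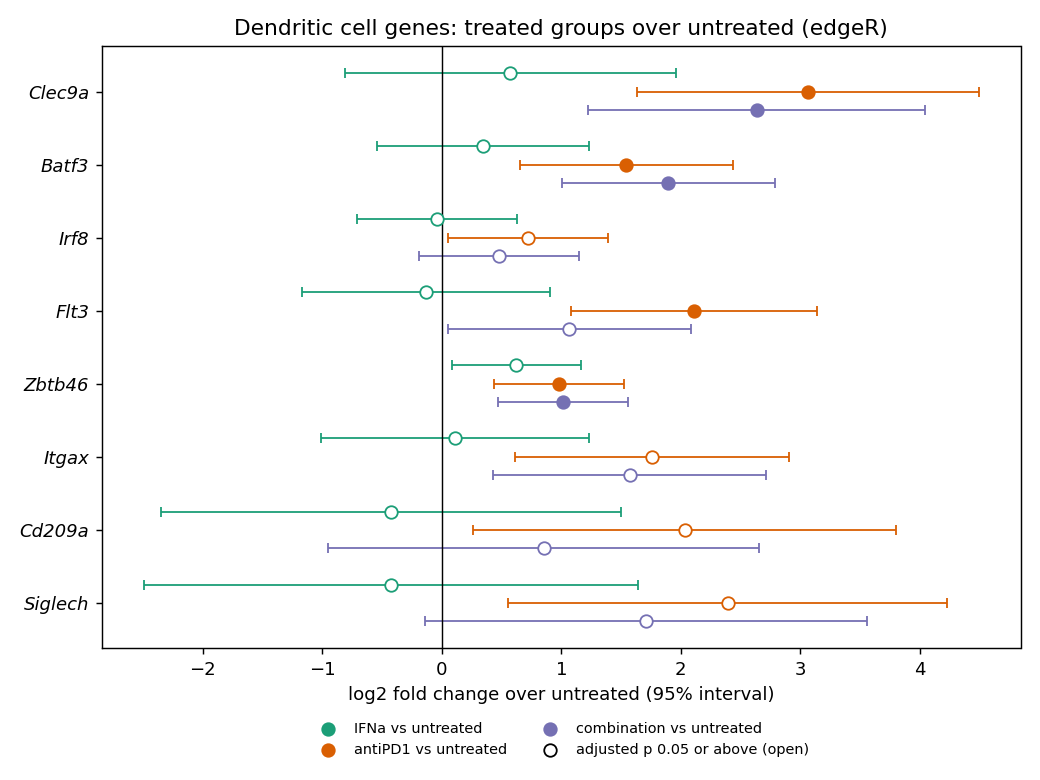
Log2 fold change over untreated libraries for each dendritic cell gene after IFNa, antiPD1 and the combination, with filled points where the adjusted p was below 0.05. Bars labelled as the 95% interval reach 1.96 standard errors to each side and are narrower than the F test allows. The Irf8 bar for antiPD1 excludes 0 (0.05 to 1.39), where the unadjusted p of the F test was 0.0596. So does the Flt3 bar for the combination (0.05 to 2.08), where the unadjusted p of the F test was 0.0644. Filled points are Clec9a, Batf3, Flt3 and Zbtb46 for antiPD1 and Clec9a, Batf3 and Zbtb46 for the combination.

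All 6 genes above the filter in untreated libraries lay without overlap above those libraries after antiPD1, and 5 did after the combination, where 17.5% and 24.7% of all tested genes did so. The calls rested on single libraries. After antiPD1, 0 members were called without untreated replicate 1 (0.0344% of all genes) or 2 (0.0412%), and 0 without antiPD1 replicate 3 (2.26%). The number was 2 without IFNa replicate 2 (10.8%) or combination replicate 1 (10.6%), 2 (9.38%) or 3 (8.81%). These IFNa and combination libraries do not enter the 2 group means compared, but they enter the shared spread, the count filter, the scaling and the set of genes adjusted over. After the combination the number was 0 without untreated replicate 1 (0.557%) or 2 (0.797%) and without combination replicate 1 (1.43%), 2 (0.983%) or 3 (0.227%). Without IFNa replicate 2 it was 1 (8.39%). In the same fits without untreated replicates 1 and 2, the genes called in the whole table after antiPD1 numbered 5 and 6, against 2126 with all libraries. Without untreated replicate 1 or 2, Clec9a was at 2.93 and 2.80 after antiPD1, Batf3 at 1.497 and 1.37, Flt3 at 2.06 and 1.86, and Zbtb46 at 0.92 and 0.76. When antiPD1 replicate 3 was left out, the antiPD1 value was 1.75 for Clec9a, 1.22 for Batf3 and 1.65 for Flt3.

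IFNa alone was set against untreated libraries as the effect of the cytokine, and 0 of 8 genes passed, as did 0% of all genes. At an unadjusted p below 0.05 there was 1 gene of the 8, Zbtb46 (0.62 ± 0.28, unadjusted p = 0.0454, adjusted p = 0.885), against 5.59% of all tested genes. DESeq2 called 30 genes in the whole table and 0 of the 8, and limma called 0. Each of the 8 overlapped between groups, where 4.96% of all tested genes were higher and 5.22% lower without overlap. The log2 fold changes of the 6 better measured genes ran from -0.13 ± 0.53 (Flt3) to 0.62. The approximate 95% interval for Clec9a (1.96 standard errors to each side), -0.81 to 1.957, includes no difference and also a difference larger than that of Zbtb46 after the combination. IFNa replicate 1 was lowest of the 12 libraries for Batf3, Irf8, Flt3 and Itgax, and without it Itgax stood at 0.58 and Irf8 at 0.25.

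Adding IFNa to antiPD1 gave 0 calls among the 8 genes and 0% over all genes in the comparison of combination with antiPD1 libraries. None of the 8 had an unadjusted p below 0.05, against 4.76% of all genes, while DESeq2 called 22 genes in the whole table and 0 of the 8. Flt3 was the gene whose groups did not overlap, with 1.52, 0.843 and 1.38 CPM in combination libraries, against 1.53, 2.19 and 4.03 CPM in antiPD1 libraries. Its log2 fold change was -1.04 ± 0.50 (unadjusted p = 0.0602, adjusted p = 0.997), and 6.66% of all tested genes were likewise lower without overlap and 7.49% higher. Clec9a stood at -0.43 ± 0.66, Batf3 at 0.35 ± 0.43 and Zbtb46 at 0.03 ± 0.27. Without antiPD1 replicate 3 the Clec9a difference was 0.89.

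Against IFNa libraries, combination libraries were higher without overlap in Clec9a, Batf3, Irf8, Zbtb46 and Itgax, where 20.3% of all tested genes were. None of the 8 passed after adjustment, where 0.342% of all genes rose, and 4 of the 6 genes above the filter in untreated libraries had an unadjusted p below 0.05, as had 23.1% of all genes. Batf3 had the smallest adjusted p (1.55 ± 0.45, adjusted p = 0.0906), then Clec9a (2.06 ± 0.70, adjusted p = 0.118). DESeq2 called both (adjusted p = 0.0180 and 0.0285, with 11.6% of all genes called), and so did edgeR without antiPD1 replicate 3 (adjusted p = 0.0496 and 0.0262, with 10% of all genes called). The interaction, which asks whether the combination differs from the sum of both single effects on the log2 scale, was called for 0 of 8 genes and 0% of all genes. No member had an unadjusted p below 0.05 there, against 6.06% of all genes, and DESeq2 called 61 genes in the whole table and 0 of the 8. The smallest adjusted p was that of Zbtb46, at -0.59 ± 0.39 (adjusted p = 0.817), and Flt3 stood at -0.91 ± 0.73 (adjusted p = 0.836).

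Many genes of leukocytes also rose in these comparisons. Ptprc had 64.0 to 223.6 CPM in antiPD1, 109 to 114 CPM in combination and 30.5 to 48.8 CPM in untreated libraries (log2 fold changes 1.78 ± 0.45, adjusted p = 0.0292, and 1.59 ± 0.44, adjusted p = 0.0427). Of 6 pan-leukocyte genes 4 rose after antiPD1 and 3 after the combination, with medians of 1.75 and 1.57. Of 11 macrophage and monocyte genes 11 and 7 rose (medians 1.82 and 1.70), and their summed CPM was 1024 to 4334 in antiPD1, 1377 to 1773 in combination and 299 to 530 in untreated libraries. Of 7 B cell genes 6 and 2 rose, of 7 T cell genes 6 and 3 rose, and of 6 neutrophil genes 4 and 5 rose (medians 1.94 and 2.24). Of 5 natural killer cell genes 1 rose after antiPD1, Eomes, and after the combination 0 rose and 1 fell, the receptor gene Klra4 (-2.18 ± 0.56, adjusted p = 0.0343). These counts rested on single libraries too: without untreated replicate 1 the number called was 0 in each of these lists in both comparisons. The part of macrophage, neutrophil, B cell and T cell RNA in the dendritic cell results was not tested. The 6 dendritic cell genes above the filter in untreated libraries had medians of 1.65 and 1.32, below the pan-leukocyte and macrophage medians in both comparisons, and the median of all tested genes was -0.01 in both comparisons.

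Dendritic cell counts were therefore also set against the summed counts of the 6 pan-leukocyte genes. Per 1000 such counts, antiPD1 libraries were above untreated ones without overlap in Clec9a, Flt3 and Itgax, as 3.74% of all tested genes were, and combination libraries in Clec9a, Batf3 and Itgax, as 5.85% were. Irf8 was lower without overlap in both, as 68.3% and 72.8% of all tested genes were. Clec9a had 3.64 to 4.18 counts in IFNa, 5.36 to 12.04 in antiPD1, 6.50 to 12.1 in combination and 1.71 to 4.21 in untreated libraries. Batf3 had 2.44 to 3.88 in antiPD1, 3.94 to 5.93 in combination and 1.94 to 3.16 in untreated libraries. Flt3 had 3.09 to 4.36 in antiPD1, 1.495 to 2.53 in combination and 1.26 to 2.68 in untreated libraries, and Itgax had 178.5 to 186.4 in antiPD1, 164.4 to 223.2 in combination and 109.1 to 163.8 in untreated libraries. Irf8 had 121 to 157 in antiPD1 and 127 to 163 in combination libraries, against 180 to 211 in untreated libraries. With these sums as library size in edgeR, 0 of 8 genes passed after antiPD1 and 1 after the combination, Clec9a (1.71 ± 0.60, adjusted p = 0.0461, against 1.54 and adjusted p = 0.0512 after antiPD1), where 17.2% and 12.6% of all genes passed in either direction. This scaling moved the median of all genes by -0.97 after antiPD1 and -0.95 after the combination. On it Batf3 stood at 0.41 and 0.97, Flt3 at 0.91 and 0.13, Zbtb46 at 0.07 and 0.08, Itgax at 0.48 and 0.64 and Irf8 at -0.50 and -0.47, none of which passed. The 6 pan-leukocyte genes did not move alike. With TMM scaling they ran from 0.15 to 2.16 after antiPD1 and from -0.35 to 1.78 after the combination. Cd53 had 2814 to 7579 counts per library and Ptprc 707 to 6886, and the sum weighs abundant genes most. Ptprc stood at 1.78 and 1.59, and Itgax, at 1.76 and 1.57, no higher. Clec9a stood higher in both comparisons, Flt3 only after antiPD1 and Batf3 only after the combination.

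**Figure D3:**
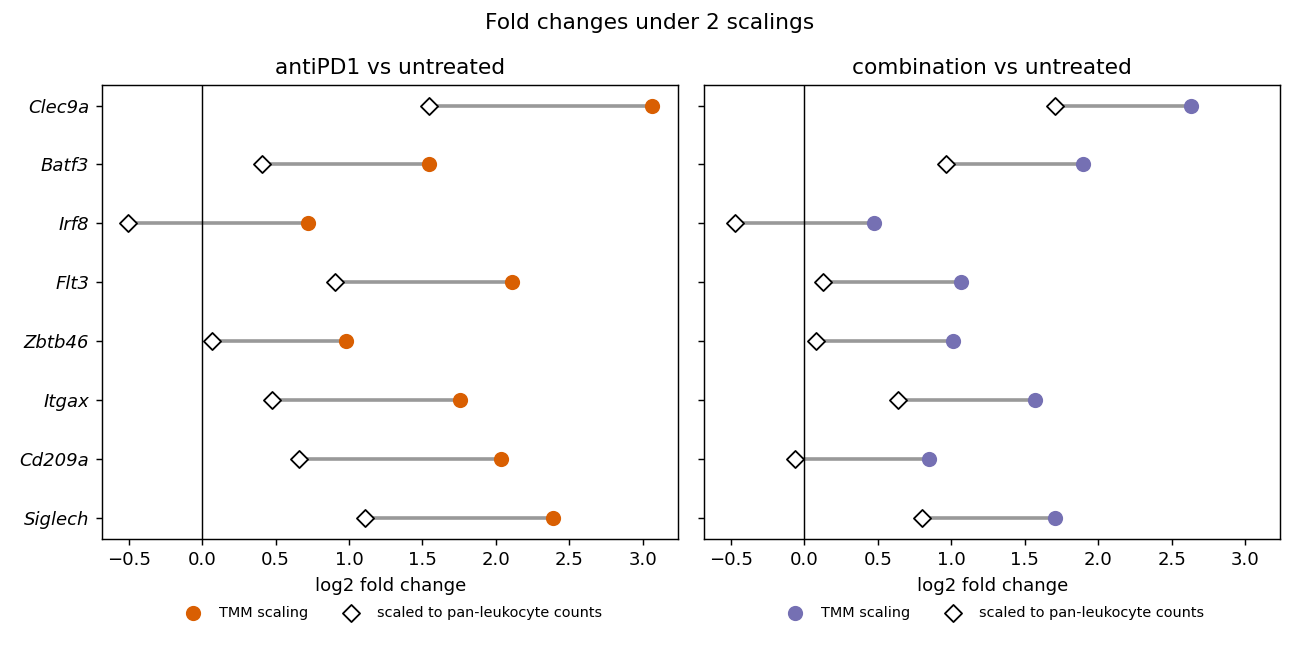
Log2 fold change over untreated libraries after antiPD1 (left) and the combination (right) with TMM scaling (filled) and with pan-leukocyte counts as library size (open). Clec9a keeps the largest value under both scalings, at 1.54 and 1.71 with the leukocyte scaling, and Irf8 lies below 0 with it, as does Cd209a after the combination.

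Within groups, the genes other than Zbtb46 followed the leukocyte content of the library. After each group's mean was removed, Pearson's r of log2 CPM with Ptprc over the 12 libraries was 0.92 for Clec9a, 0.86 for Batf3, 0.89 for Irf8, 0.88 for Flt3, 0.91 for Itgax, 0.92 for Cd209a and 0.74 for Siglech, and -0.15 for Zbtb46. These r describe 12 points that share their library and its scaling. Without antiPD1 replicate 3 and IFNa replicate 1 they were 0.77 for Clec9a, 0.49 for Batf3, -0.15 for Irf8, 0.73 for Flt3, 0.83 for Itgax, 0.82 for Cd209a, 0.48 for Siglech and 0.60 for Zbtb46. The values of Irf8 and Zbtb46, and the contrast of Zbtb46 with the other genes, therefore rest on these libraries. Batf3 and Siglech were also lower without them, and lay below Zbtb46. With the summed macrophage and monocyte genes the within-group r over 12 libraries was 0.96 for Clec9a, -0.06 for Zbtb46 and 0.70 to 0.87 for each other member. Between Zbtb46 and the summed endothelial genes the within-group r was 0.54. With the group means kept, that r was 0.64, and 0.87 without antiPD1 replicate 2 and untreated replicate 1.

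**Figure D4:**
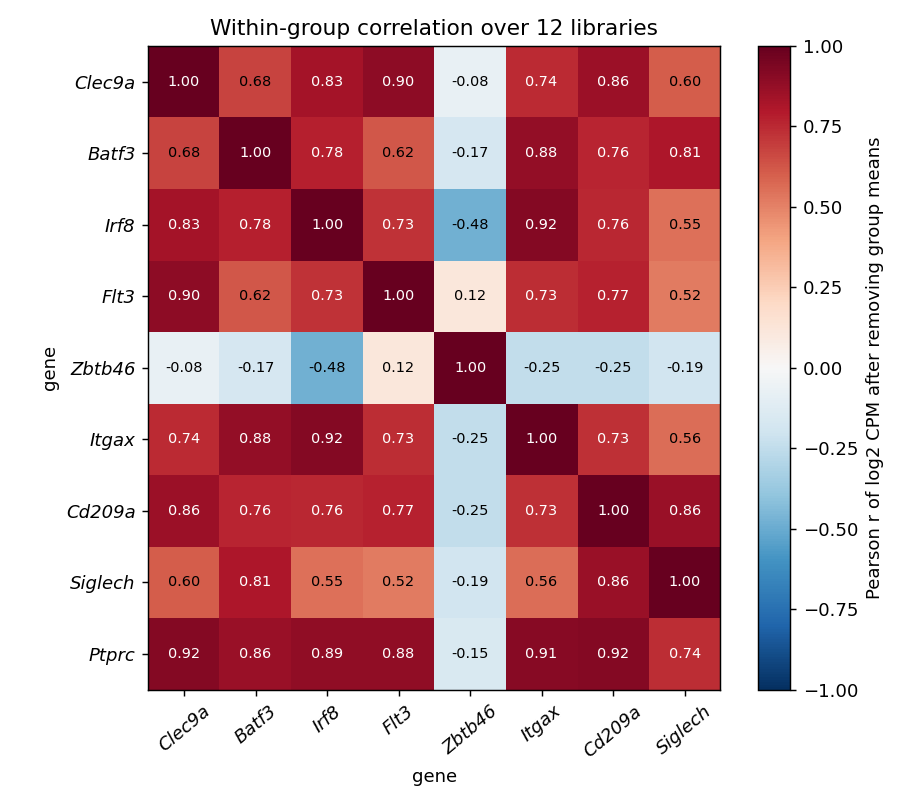
Pearson's r of log2 CPM between the dendritic cell genes, and with Ptprc, over 12 libraries after each group's mean was removed. Zbtb46 runs from -0.48 to 0.12 with the other 7 genes, and with Ptprc the other genes lie between 0.74 and 0.92. Without antiPD1 replicate 3 and IFNa replicate 1, r with Ptprc was 0.60 for Zbtb46 and -0.15 for Irf8.

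The genes most like each member were sought by Pearson's r of log2 CPM over the 12 libraries among 12739 genes with at least 1 CPM on average. Clec9a was most like Fgl2 (0.99), which encodes a fibrinogen-like protein of macrophages and regulatory T cells, followed by Dnase1l3 and Aoah. Itgax was most like H2-Ab1, H2-Eb1 and H2-Aa (0.99 each), the class II genes that present antigen to helper T cells. Flt3 had Tpcn2 (0.96), Mib2 and Ccr7, the last a receptor that guides mature dendritic cells to lymph nodes. Zbtb46 had Igfbp5 (0.94), a binding protein of insulin-like growth factors, Serpinb8 and Arhgef26. Batf3 had 1810011H11Rik, Irf8 had Sdf2l1, Cd209a had Sh2d1a and Siglech had Col11a2 as the nearest, at 0.98, 0.98, 0.97 and 0.94. These likenesses include the difference between groups, and after the group means were removed r was 0.99 for Clec9a with Fgl2 and 0.82 for Zbtb46 with Igfbp5.

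Other genes of type 1 conventional dendritic cells moved in both directions. Of 9 tested, 2 rose after antiPD1 (Naaa and Wdfy4). After the combination 3 rose (Tlr3, Naaa and Wdfy4) and 2 fell (Id2 and the adhesion molecule gene Cadm1). Both fallen genes were far more abundant than Clec9a. Id2 had 15834 to 26796 counts per library and Cadm1 3002 to 6041, against 15 to 483 for Clec9a. Which cells made their RNA was not tested. Naaa, a lysosomal amidase abundant in these cells, rose by 1.21 ± 0.27 and 1.19 ± 0.27 log2 units (adjusted p = 0.0219 and 0.0241). Tlr3, the receptor for double-stranded RNA, had 12.1 to 13.4 CPM in combination libraries, against 5.54 to 8.22 CPM in untreated libraries (0.98 ± 0.20, adjusted p = 0.0198). Id2, an inhibitor of DNA binding that many cell types make, fell to 467 to 510 CPM in combination libraries, against 666 to 751 CPM in untreated libraries (-0.51 ± 0.11, adjusted p = 0.0213). Xcr1, a chemokine receptor used to mark type 1 cells in mouse, had 0.481 to 2.50 CPM in antiPD1, 1.63 to 2.76 CPM in combination and 0.195 to 0.611 CPM in untreated libraries, with differences of 1.98 ± 0.84 (adjusted p = 0.124) and 2.56 ± 0.84 (adjusted p = 0.0673).

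Genes of type 2 and monocyte-derived dendritic cells gave 5 risen of 7 tested after antiPD1 and the same 5 after the combination (Irf4, Sirpa, Clec10a, Clec4a1 and Clec4a2), with 0 fallen. Clec10a, a galactose-binding lectin shared with macrophages, had 2.80 to 5.55 CPM in antiPD1, 3.16 to 4.45 CPM in combination and 0.973 to 1.86 CPM in untreated libraries (1.62 ± 0.35 and 1.55 ± 0.35, adjusted p = 0.0216 and 0.0249). Of 12 plasmacytoid genes 5 rose after antiPD1 (Tlr7, Tlr9, Pacsin1, Spib and Lair1) and 1 fell, Tcf4, a transcription factor that other cell types also make (-0.60 ± 0.18, adjusted p = 0.0488). After the combination the same 5 rose and 0 fell. Tlr9, the receptor for unmethylated DNA that B cells also carry, had 5.21 to 14.3 CPM in antiPD1, 9.36 to 11.5 CPM in combination and 1.1996 to 3.05 CPM in untreated libraries (2.15 ± 0.51 and 2.44 ± 0.52, adjusted p = 0.0259 and 0.0213). Bst2, an interferon-induced tether of viruses used as a plasmacytoid marker, did not pass (0.79 ± 0.30 and 0.92 ± 0.30, adjusted p = 0.0919 and 0.0643).

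Maturation genes gave 7 risen of 14 after antiPD1 and 1 after the combination, Il15ra, the chain that presents interleukin 15 to lymphocytes (1.29 ± 0.29 and 1.23 ± 0.29, adjusted p = 0.0221 and 0.0265). Il12b, a subunit of interleukin 12, had 0.340 to 4.97 CPM in antiPD1, 0.959 to 1.71 CPM in combination and 0.0324 to 0.183 CPM in untreated libraries. Its difference passed after antiPD1 (4.55 ± 1.22, adjusted p = 0.0341) and missed the threshold after the combination (4.01 ± 1.22, adjusted p = 0.0532), while 2 of the 3 untreated values lay under the 3-count floor, so the size of both is uncertain. Growth factor and progenitor genes gave 7 risen of 11 after antiPD1 and 5 after the combination, such as Spi1, which encodes PU.1 (1.78 ± 0.34 and 1.80 ± 0.34, adjusted p = 0.0198 and 0.0169). Flt3l, the ligand of FLT3, had 4.25 to 9.55 CPM in antiPD1, 6.46 to 7.42 CPM in combination and 3.24 to 4.15 CPM in untreated libraries, and did not pass (0.85 ± 0.34 and 0.83 ± 0.34, adjusted p = 0.105 and 0.120). In these 5 lists the counts after both treatments were 0 without untreated replicate 1 and 0 without untreated replicate 2. The counts after the combination were also 0 without any 1 combination library, except 1 growth factor gene without replicate 1, and 207, 143 and 33 genes were called in the whole table without combination replicates 1, 2 and 3. Without antiPD1 replicate 3 the counts after antiPD1 were 0 for type 1, 1 for type 2, 0 for plasmacytoid, 0 for maturation and 3 for growth factor genes. In that fit 2.26% of all genes were called. After IFNa, 0 genes of these lists passed.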

How the data were processed

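Total RNA libraries were grouped by the treatment label, and columns were matched to samples by name. Per the submitters' processing notes, the tools were HISAT2 2.1.0, Cufflinks and HTSeq and the build was mm10. No source used here says which step each tool served, which annotation was counted or whether strand was used. The authors deposited 1 whole-number count per gene and library and a table of FPKM for the same genes.

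In R 4.3.3, edgeR 4.0.16 was run on the counts: filterByExpr with a minimum count of 10, TMM scaling, 1 mean per group over all 12 libraries and the quasi-likelihood F test in its robust form. Benjamini-Hochberg adjustment covered 14330 genes, and the threshold was 0.05. CPM values are TMM-scaled. Likeness used log2(CPM + 0.5). The smallest p an exact test of 3 against 3 libraries allows is 0.1, so single genes were tested only within the fit across all genes. Floors cover counting error only. The procedure was tested on simulated data. Gene coordinates are from GENCODE M21 and promoters from RefSeq.

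Alternatives were no filter on low counts, RLE size factors, DESeq2 1.42.0, a fit of only the groups compared, a replicate block, limma 3.58.1 on log2(FPKM + 1) and log2(FPKM + 0.1) of genes with at least 1 FPKM in 3 libraries and the first without a filter, each library left out, antiPD1 replicate 3 and IFNa replicate 1 both left out, and pan-leukocyte counts as library size. The members, the gene lists and these alternatives were chosen with earlier results of these data known. The text names all 8 members, up to 3 genes per list with the smallest p after the combination, Ptprc, Flt3l, Xcr1 and Bst2, and per member the 3 genes most like it; from these it gives examples. Other genes named in counts of 5 or fewer were chosen after their values were seen. The hepatoma transcript H19 was not analysed here.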

Additional observations from a re-analysis of the deposited data

How the results depend on the processing

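The number of the 8 genes called was 4 after antiPD1 and 3 after the combination, and 0 in the other comparisons. After antiPD1 it was 5 with DESeq2 (23.2% of all genes called), 2 without a low-count filter (9.93%), 0 with only the groups compared (0%), 1 with limma on log2(FPKM + 1) (8.55%), 2 with log2(FPKM + 0.1) (9.3%), 1 without the FPKM filter (4.39%), 0 with pan-leukocyte counts as library size (17.2%), and 0 to 5 over the 12 fits that leave out 1 library. After the combination it was 2 without a low-count filter (7.86%), 5 with only the groups compared (27.2%), 1 with limma on log2(FPKM + 1) (8.88%), 5 without IFNa replicate 1 and antiPD1 replicate 3 (29.2%), 1 with pan-leukocyte counts (12.6%) and 0 to 4 with 1 library left out. In the FPKM fits with a filter, Zbtb46, Flt3, Cd209a and Siglech were not tested, since each stayed under 1 FPKM. For combination against IFNa it was 1 with only the groups compared (8.09%), 2 with DESeq2 (11.6%), 2 without IFNa replicate 1 and antiPD1 replicate 3 (9.07%), and 0 to 2 with 1 library left out. The causes were not tested.
In the fit with the replicate block, 5 genes were called after antiPD1 (16.7% of all genes) and 3 after the combination (15.2%). Whether the numbers pair the samples is not stated, and the values do not settle it. Same-numbered libraries had deviations correlated above 0.1 in 9 of 18 pairs (median 0.065), and libraries of other numbers in 13 of 36 (median -0.055). Of the 12 libraries, 7 matched their own number best. The block result is given only here.
No called value of a member changed sign. Uncalled values of IFNa against untreated did so for Itgax (-0.076 with the replicate block, -0.11 with limma on log2(FPKM + 1) with and without the filter, -0.21 with log2(FPKM + 0.1), -0.071 with pan-leukocyte counts, -0.23 to 0.58 with 1 library left out). Without IFNa replicate 1 and antiPD1 replicate 3, Irf8 was at 0.29, Flt3 at 0.21, Cd209a at 0.16 and Siglech at 0.15. With 1 library left out the ranges were -0.21 to 0.25 for Irf8, -0.60 to 0.23 for Flt3, -1.10 to 0.15 for Cd209a, -2.21 to 0.14 for Siglech and -0.071 to 0.70 for Batf3. For combination against antiPD1, Itgax was at 0.037 with limma on log2(FPKM + 1) with and without the filter, 0.044 with log2(FPKM + 0.1), 0.45 without both libraries and 0.16 with pan-leukocyte counts (-0.46 to 0.45 with 1 library left out), Clec9a at 0.059, 0.89 and 0.16 with log2(FPKM + 0.1), without both libraries and with pan-leukocyte counts (-0.85 to 0.89), Irf8 at 0.24 and 0.031 in the last 2 settings (-0.45 to 0.24), and Zbtb46 at -0.055 without both libraries (-0.055 to 0.14). With pan-leukocyte counts Irf8 was at -0.50 after antiPD1, -0.47 after the combination and -0.38 against IFNa, Zbtb46 at -0.74 against IFNa and Cd209a at -0.061 after the combination.
Interactions changed sign for Batf3 (-0.023 with RLE size factors, -0.022 without a filter, -0.024 with DESeq2, -0.080 with log2(FPKM + 0.1), -0.055 without both libraries, -0.35 to 0.41 with 1 library left out), Irf8 (0.011 in both fits of log2(FPKM + 1), 0.024 with log2(FPKM + 0.1), 0.12 with pan-leukocyte counts, -0.50 to 0.25), Itgax (0.037 with the replicate block, 0.15 in both fits of log2(FPKM + 1), 0.25 with log2(FPKM + 0.1), 0.23 with pan-leukocyte counts, -0.76 to 0.31), Siglech (0.28 with the replicate block, 0.27 with pan-leukocyte counts, -0.83 to 1.52), Clec9a (-1.51 to 0.29) and Cd209a (-1.32 to 0.083).
Among other lists, the balance of rises and falls turned with pan-leukocyte counts, where 1 type 1, 2 plasmacytoid and 1 NK cell genes were called after antiPD1 and 3 type 1 and 1 type 2 genes after the combination, and for NK cell genes after the combination, with 3 called in the fit of only the groups compared and 3 without both libraries. Cd209a and Siglech, at 0 to 55 counts, are limited by depth.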
